A study of Mus musculus with 24 samples.

Results

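The comparison described here is that of KIT+ and THY1+ spermatogonia within Zbtb16 null mice, which asks how much of the change between these sorted fractions was seen without ZBTB16. Its members are the 6 libraries that the labels give the genotype Zbtb16 null, 3 KIT+ and 3 THY1+, of 24 RNA-seq libraries in the series. Null mice were homozygous for the luxoid allele (Zbtb16 lu/lu) on a C57BL/6J background, and the 6 libraries used beside them, 3 KIT+ and 3 THY1+, were labelled WT and came from littermates. The allele is carried by every cell of the animal, and not by germ cells only. All cells came from testes at postnatal day 7 (P7). Testes of 3 mice were pooled for an isolation, and cells were bound to magnetic beads carrying anti-THY1 or anti-KIT antibody. Another 6 libraries, from Sox3 cKO testes at P7 (Sox3 deleted in male germ cells by Ddx4-Cre), served only to choose genes. The study describes its RNA-seq replicates as independent biological replicates, and the labels number them without naming an isolation.

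Spermatogonia (SPG) are the mitotic germ cells of the testis. Undifferentiated SPG (uSPG) include the stem cells, which respond to GDNF through GFRA1 and RET, and progenitors, which turn on the retinoic acid receptor gamma. Retinoic acid then drives uSPG to become differentiating SPG (dSPG), which carry the receptor KIT and express STRA8, and which later enter meiosis. ZBTB16 (PLZF) is a zinc-finger transcription factor of uSPG, and mice without it lose their germ cells progressively. THY1 marks uSPG in the immature testis but is also carried by T cells and some stromal cells, and KIT is also carried by Leydig cells and mast cells.

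Expression values were FPKM, in which a gene's reads are scaled by its transcript length and by the mapped reads of the library. The null libraries held an estimated 25.93 to 30.5 M reads each, with 15986 to 16468 genes at 1 FPKM or more. Differences below are KIT+ minus THY1+ on the scale log2(FPKM + 0.1), which understates the change of genes with low values. A gene was called where the limma adjusted p was at most 0.05 and the difference at least 1.5-fold, over 22374 genes tested. The first principal component, with 58.8% of the variance over the 12 libraries of the Zbtb16 table, separated KIT+ from THY1+ libraries in both genotypes.

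The gene that carries the luxoid allele was lower in the null libraries of both fractions. Zbtb16 (ENSMUSG00000066687, chromosome 9, 48654297 to 48836222, minus strand, mm10) was at 17.5, 18.2 and 15.6 FPKM in the null THY1+ libraries and at 6.69, 6.59 and 6.11 FPKM in the null KIT+ libraries. In WT its means were 52.1 ± 8.93 FPKM in THY1+ and 18.2 ± 4.39 FPKM in KIT+ (SD, n = 3). Transcript therefore remained in null cells, and it fell from THY1+ to KIT+ by 1.39 on the log2 scale (SE 0.166, adjusted p = 7.31e-05), beside a WT difference of −1.53. The difference between these differences was 0.14 (95% interval −0.37 to 0.66).

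The sorting markers separated the null fractions. Thy1 (ENSMUSG00000032011, chromosome 9, 44043384 to 44048579, plus strand, mm10), which encodes a surface glycoprotein, was at 3.48, 4.67 and 4.23 FPKM in null THY1+ and at 0.666, 0.425 and 0.463 FPKM in null KIT+ libraries. Its level was 7.97-fold higher in the null THY1+ mean (log2 difference −2.78, SE 0.291, adjusted p = 2.92e-05). Kit (ENSMUSG00000005672, chromosome 5, 75574916 to 75656722, plus strand, mm10), the receptor of stem cell factor, was at 16, 14.0 and 16.6 FPKM in null THY1+ and at 51.7, 74.8 and 52.6 FPKM in null KIT+ libraries. No library overlapped between fractions for either gene, as for 27.3% of all genes tested with KIT+ lower and 21.3% with KIT+ higher. The rise of Kit was 3.85-fold (log2 difference 1.92, SE 0.187, adjusted p = 1.86e-05), and its WT means of 16.5 ± 4.02 and 59.1 ± 9.26 FPKM lay close by. The null and WT differences of Kit differed by 0.07 (95% interval −0.51 to 0.65), and those of Thy1 by 0.50 (95% interval −0.41 to 1.4).

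**Figure D1:**
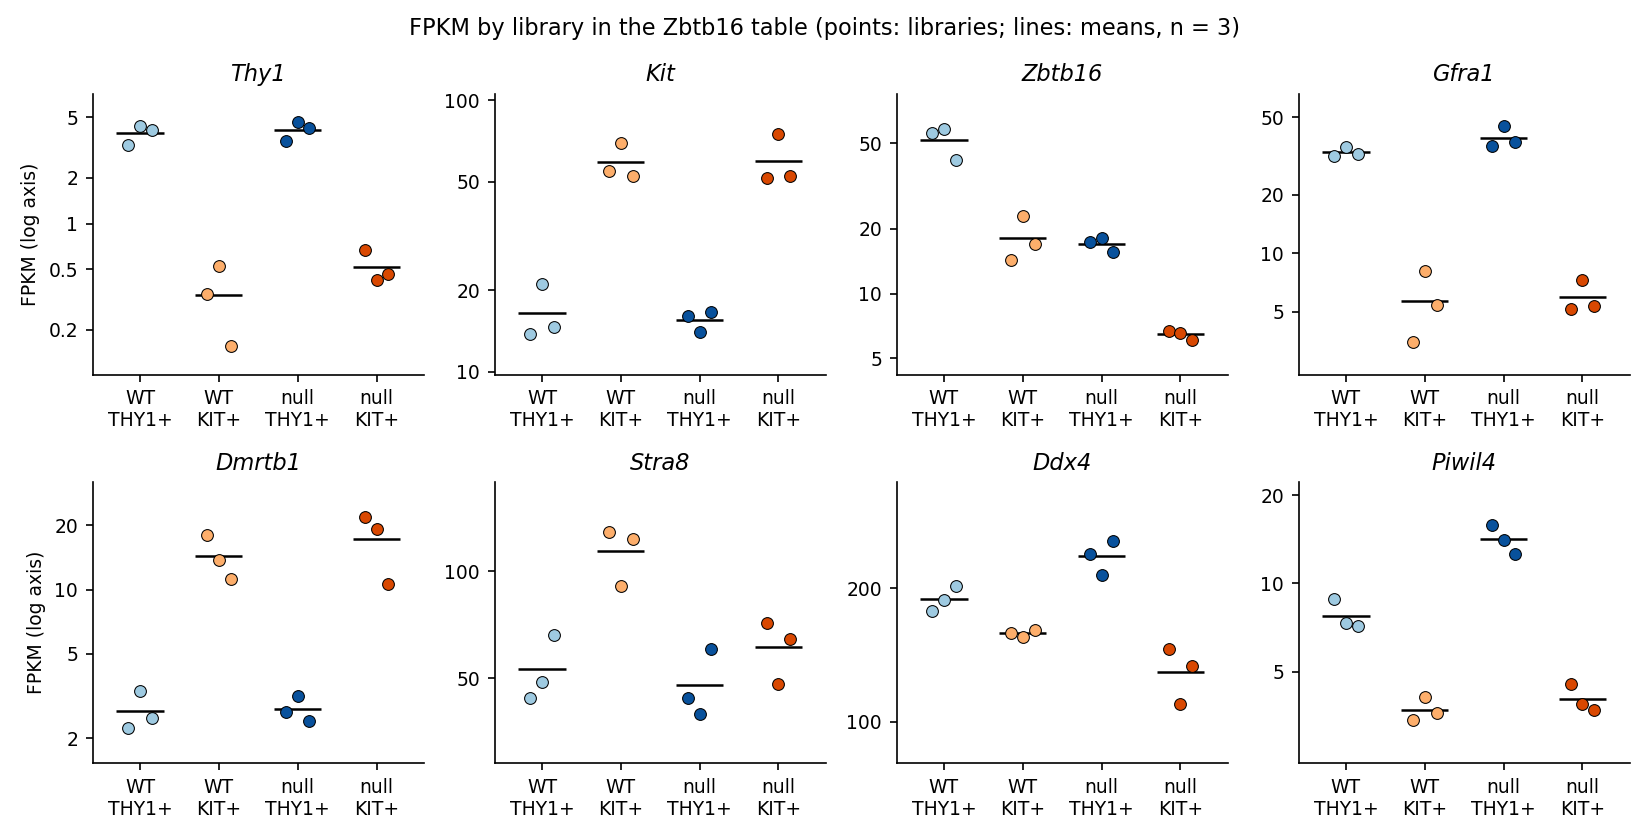
FPKM of 8 genes (log axis) in each library of the Zbtb16 table, with WT libraries in light and null libraries in dark colours, THY1+ in blue and KIT+ in orange, and lines at the means of 3 libraries. Thy1, Gfra1 and Piwil4 were lower and Kit and Dmrtb1 higher in every null KIT+ library than in every null THY1+ library, while Stra8 overlapped between the null fractions.

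Both null fractions also held RNA of cells other than spermatogonia, and these moved strongly with the fraction. All 9 Leydig cell markers rose in null KIT+ libraries, beside 13.2% of all genes tested. Cyp17a1, a steroidogenic enzyme of Leydig cells, was at 8.67, 13.9 and 7.55 FPKM in null THY1+ and at 465, 649.8 and 656 FPKM in null KIT+ libraries. The summed FPKM of the 9 genes was 57.4 to 92.0 in null THY1+ and 2104 to 3199 in null KIT+ libraries, beside 1248 to 2348 in WT KIT+ libraries. All 13 macrophage markers fell, beside 16.0% of all genes tested. C1qa, a complement component made by macrophages, was at 66.1, 112 and 55.4 FPKM in null THY1+ and at 0.037, 0.451 and 0.0322 FPKM in null KIT+ libraries. The macrophage sum was 478 to 932 in null THY1+ and 7.04 to 16.7 in null KIT+ libraries. In such bulk samples fewer cells of a type and less RNA per cell cannot be told apart.

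Markers of Sertoli cells, the nurse cells of the tubule, rose in 11 of 14 cases in null KIT+ libraries, and 1 fell. Their sum was 37.5 to 52.9 FPKM in null THY1+ and 210.3 to 266 FPKM in null KIT+ libraries. Clu, a secreted chaperone, rose by 3.41 on the log2 scale and Gdnf, the stem cell niche factor, by 3.29, while Sox9, a defining factor of Sertoli cells, was at 0.357 to 0.609 and 0.825 to 1.04 FPKM and was not called. Peritubular and stromal markers gave 1 call of 12, Tcf21, a mesenchymal transcription factor (0.85, adjusted p = 0.00416), with sums of 343 to 560 FPKM in null THY1+ and 395 to 805 FPKM in null KIT+ libraries. In WT 7 of these 12 fell, beside 14.0% of all genes tested. Of 10 T cell markers 8 fell, of 7 measured mast cell markers 5 fell and 1 rose, of 10 endothelial markers 4 rose and 2 fell, and of 5 red blood cell markers 4 rose. Over all genes tested 13.2% rose and 16.0% fell. The endothelial falls, the mast cell rise, the peritubular rise and the Sertoli fall lay near or below these shares. The part of these cell types in the differences of the other gene groups below was not tested.

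**Figure D2:**
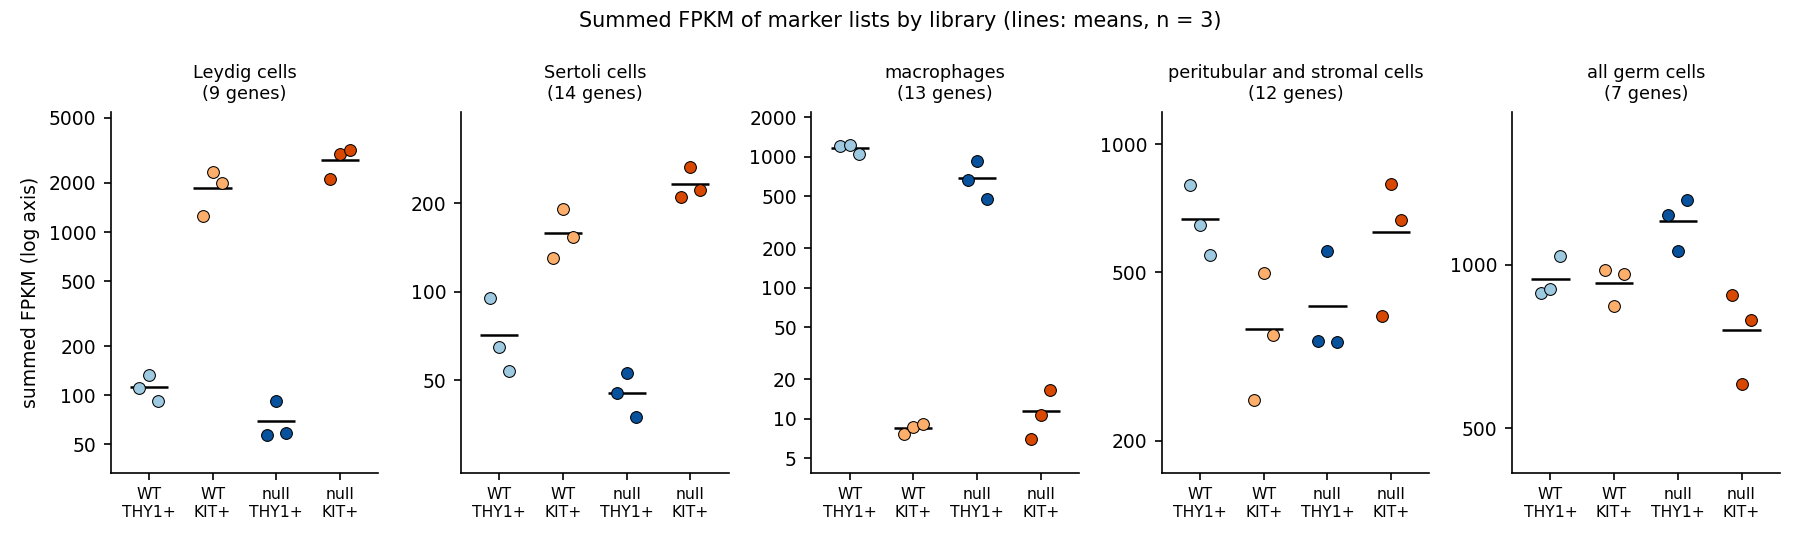
Summed FPKM (log axis) of the markers of Leydig cells, Sertoli cells, macrophages, peritubular and stromal cells and all germ cells in each library, with lines at the means of 3 libraries. Leydig and Sertoli sums were higher and the macrophage sum lower in every null KIT+ library than in every null THY1+ library, and the germ cell sum was lower in the null KIT+ libraries.

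Across all genes, 6532 of 22374 differed between the null fractions, 29.2% of those tested. Of these, 2954 were higher in null KIT+ (13.2% of genes tested) and 3578 lower (16.0%). In WT 4737 genes (21.2%) were called, 1614 higher (7.21%) and 3123 lower (14.0%). The null split moved to 3307 higher and 3248 lower under quantile normalization, to 2723 and 3987 under median centring, and to 2222 and 2110 among genes with a mean of at least 1 FPKM. The WT split moved to 2427 higher and 2486 lower under quantile normalization and to 2097 and 2691 under median centring. Genes of germ cells in general fell between the null fractions, and the choice of scale then decides many directions. Setting each library to the mean of 7 germ cell genes instead of the deposited scale shifted the median of all genes from −0.05 to 0.89 and gave 15041 higher (67.2%) and 733 lower genes (3.28%). It raised every null difference by 0.94 and every WT difference by 0.36, so that each null minus WT difference below, given on the deposited scale unless said otherwise, lay 0.58 higher on the germ cell scale. Of the cell markers above, the counts of Leydig and macrophage markers were the same on it, while 13 of 14 Sertoli, 8 of 12 peritubular and stromal, 8 of 10 endothelial and 5 of 5 red blood cell markers rose with none lower, 6 of 10 T cell markers fell, and 2 of 7 mast cell markers rose and 4 fell. A second alternative, on the deposited scale, used the replicate number as a block. The germ cell scale was fitted without it. Where a blocked value is printed, it is the adjusted p of a test between genotypes that the block turned into a call. Not every such call is printed.

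The germ cell genes themselves were lower in null KIT+ than in null THY1+ libraries. Ddx4, the VASA RNA helicase, was at 239, 214 and 256 FPKM in null THY1+ and at 146, 109 and 134 FPKM in null KIT+ libraries. Its difference of −0.87 (SE 0.116, adjusted p = 0.00015) compared with −0.26 in WT. Stk31, a germ cell kinase, was at 146, 138 and 145 FPKM in null THY1+ and 73.1, 57.9 and 62.4 FPKM in null KIT+ libraries (−1.16, SE 0.0949, adjusted p = 5.95e-06). Neither gene overlapped between the null fractions. In all, 6 of the 7 measured genes fell, beside 16.0% of all genes, and Dppa4, a factor of pluripotent and early germ cells, fell by the most (−1.95). The remaining gene, Dazl, an RNA-binding protein of germ cells, had a difference of −0.42 (adjusted p = 0.147). The mean log2 level of the 7 genes was 6.75 ± 0.0555 in null THY1+ and 5.82 ± 0.179 in null KIT+ libraries, beside 6.30 ± 0.0928 and 5.94 ± 0.0576 in WT (SD, n = 3). The null shift was −0.94 and the WT shift −0.36. No gene of the list passed the test of the null against the WT difference without the block. With it 4 of 7 did, all negative, beside 3.26% of all genes (blocked adjusted p = 0.0196 for Ddx4 and 0.0139 for Stk31). On the germ cell scale, which is set by the genes of this list and was fitted without the block, none of them passed. The Leydig and Sertoli sums above moved up between the null fractions where the germ cell genes moved down. In THY1+ libraries the macrophage sum was 478 to 932 FPKM in null and 1044 to 1220 FPKM in WT. The peritubular and stromal sum was 343 to 560 FPKM in null and 550 to 804 FPKM in WT THY1+ libraries. The part of these cells in the germ cell shifts was not tested.

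Genes of the stem state fell almost without exception in null KIT+ libraries. Of 15 listed genes 14 were lower and 1 higher, beside 16.0% and 13.2% of all genes, with a median of −2.15 against −0.05 over all genes tested. On the germ cell scale 11 were lower and 1 higher, beside 3.28% and 67.2% of all genes. Gfra1, the GDNF co-receptor, was at 35.3, 44.8 and 37.1 FPKM in null THY1+ and at 5.13, 7.30 and 5.36 FPKM in null KIT+ libraries. Ret, its signalling partner, was at 28.1, 38.4 and 24.2 FPKM in null THY1+ and at 3.65, 6.46 and 3.51 FPKM in null KIT+ libraries. Nanos2, an RNA-binding repressor of differentiation, was at 6.54, 8.03 and 7.49 FPKM in null THY1+ and at 1.04, 1.30 and 1.30 FPKM in null KIT+ libraries. For each of the 3 genes the null THY1+ mean was over 6 times the null KIT+ mean, and no libraries overlapped.

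These genes also fell in WT. On the deposited scale Gfra1 fell by 2.71 (SE 0.243, adjusted p = 1.08e-05) in null and by 2.60 in WT, a difference of −0.11 (95% interval −0.86 to 0.64). Ret fell by 2.74 and 2.81, a difference of 0.07 (95% interval −0.86 to 1.01). Id4, an inhibitor of basic helix-loop-helix factors in stem cells, fell by 2.17 and 2.5, Tcl1, a co-activator of AKT, by 2.73 and 2.44, and Foxc2, a forkhead factor of stem cells, by 2.17 and 2.64. The list median in WT was −2.24, with 14 of 15 genes lower. On the germ cell scale the medians were −1.21 in null and −1.88 in WT, and 3 of the 15 were called in the test between genotypes, where 27.6% of all genes were positive and 0.0939% negative calls. These were Id4 (0.90, adjusted p = 0.0363), Eomes, a T-box factor named here after its values were seen (1.06, adjusted p = 0.0428), and Shisa6, each positive. Shisa6, a transmembrane protein reported in a subset of stem cells, was the one listed gene that rose. It stood at 0.162, 0.224 and 0.132 FPKM in null THY1+ and at 0.497, 0.760 and 0.467 FPKM in null KIT+ libraries (1.29, SE 0.235, adjusted p = 0.00118). In WT its means were 0.519 and 0.541 FPKM, and the test of the difference gave 1.26 (95% interval 0.53 to 1.99, adjusted p = 0.0944, blocked 0.0163).

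Genes of progenitor uSPG fell in part. Of 13 listed genes 8 were lower and none higher on the deposited scale, beside 16.0% and 13.2% of all genes, with a median of −0.82. On the germ cell scale 2 were lower and 4 higher, beside 3.28% and 67.2% of all genes. Nanos3, an RNA-binding protein, was at 25.5, 17.3 and 21.9 FPKM in null THY1+ and at 7.13, 5.18 and 5.68 FPKM in null KIT+ libraries (−1.82, SE 0.185, adjusted p = 2.38e-05). Cdh1, which encodes E-cadherin, fell by 1.83 and Upp1, uridine phosphorylase, by 1.37. Sall4, a zinc-finger factor of uSPG, fell by 1.17, and Lin28a, an RNA-binding protein that blocks let-7 processing, by 0.99. Each of these genes also fell in WT on the deposited scale. On the germ cell scale Nanos3 and Cdh1 stayed lower in null, while Upp1 (−0.43), Sall4 (−0.23) and Lin28a (−0.05) were not called. Zbtb16, also on this list, was not called there in null either (−0.45, adjusted p = 0.0613). Neurog3, a basic helix-loop-helix factor of progenitors, is named here after its values were seen. It was at 3.07, 2.64 and 2.55 FPKM in null THY1+ and at 2.23, 1.61 and 1.43 FPKM in null KIT+ libraries (−0.64, SE 0.202, adjusted p = 0.0264), and its WT means were 6.62 and 4.11 FPKM. Its level was thus lower in null in both fractions. On the deposited scale its fraction differences of −0.64 in null and −0.67 in WT differed by 0.03 (95% interval −0.60 to 0.66). On the germ cell scale Neurog3 had differences of 0.30 in null (adjusted p = 0.235) and −0.31 in WT, neither called. Those differed by 0.61 (95% interval −0.09 to 1.30). Ddit4, a stress-induced inhibitor of mTORC1, was at 2.78 to 5.22 FPKM in null THY1+ and 2.90 to 5.56 FPKM in null KIT+ libraries, which overlapped, beside a WT difference of −1.28. The test of the difference gave 1.45 (95% interval 0.30 to 2.60, adjusted p = 0.148, blocked 0.0245).

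Of the 8 listed genes of differentiating SPG, 4 rose in null KIT+ libraries and none fell, beside 13.2% and 16.0% of all genes. The germ cell scale gave a rise of all 8, beside 67.2% of all genes. Besides Kit the 4 were Dmrtb1, Prss50 and Rhox13. Dmrtb1, a doublesex-related factor at the switch from mitosis to meiosis, was at 2.68, 3.16 and 2.41 FPKM in null THY1+ and at 22.0, 19.3 and 10.7 FPKM in null KIT+ libraries. Its rise of 2.56 (SE 0.265, adjusted p = 2.73e-05) stood beside 2.37 in WT, a difference of 0.19 (95% interval −0.63 to 1.01). Rhox13, an X-linked homeobox gene of differentiating SPG, was at 17.6, 16.7 and 20.8 FPKM in null THY1+ and 45.0, 29.0 and 29.2 FPKM in null KIT+ libraries (0.88, SE 0.218, adjusted p = 0.00777). Prss50, a testis serine protease, rose by 1.7 (adjusted p = 0.0382) with null KIT+ libraries from 2.18 to 8.18 FPKM, a call that was lost without null KIT+ replicate 1 or 2 or any null THY1+ replicate (adjusted p = 0.0686 to 0.131). Sohlh1, a helix-loop-helix factor of SPG, was at 61.5 to 68.7 FPKM in null THY1+ and 56.9 to 71.4 FPKM in null KIT+ libraries and was not called.

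Stra8, which retinoic acid induces and which is needed for meiotic entry, was the member of this list with a call in WT and none in null. It was at 44.0, 39.8 and 60.3 FPKM in null THY1+ and at 71.5, 48.2 and 64.4 FPKM in null KIT+ libraries, which overlapped. The null difference was 0.36 (SE 0.214, adjusted p = 0.213) on the deposited scale, while Stra8 rose on the germ cell scale, where all 8 genes of the list were called. In WT its mean rose from 53.0 ± 11.5 to 114 ± 20.8 FPKM (1.11, adjusted p = 0.00258). The null difference was smaller than the WT difference by 0.76 (95% interval −1.42 to −0.10, unadjusted p = 0.0286), which did not pass over all genes (adjusted p = 0.176) but did with the block (blocked adjusted p = 0.0342). On the germ cell scale Stra8 rose in both genotypes, by 1.30 in null and 1.48 in WT, a difference of −0.18 (95% interval −0.68 to 0.32).

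Retinoic acid receptors bind pairs of half-sites of the form AGGTCA or AGTTCA. The 250 bases before the RefSeq transcription start of Stra8 and of Cyp26a1, another retinoic acid target, are printed below from RefSeq (GRCm38.p6, plus strand of the chromosome, which is the gene's strand for both) because their levels bear on the retinoid signal. Capitals mark these 6 letters on either strand.
Stra8, chr6:34920698-34920947: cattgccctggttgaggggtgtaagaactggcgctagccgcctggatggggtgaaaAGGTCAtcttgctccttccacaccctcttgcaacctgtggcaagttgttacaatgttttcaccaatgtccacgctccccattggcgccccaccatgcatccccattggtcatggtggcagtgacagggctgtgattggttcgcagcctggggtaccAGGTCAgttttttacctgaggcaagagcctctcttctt
Cyp26a1, chr19:37697558-37697807: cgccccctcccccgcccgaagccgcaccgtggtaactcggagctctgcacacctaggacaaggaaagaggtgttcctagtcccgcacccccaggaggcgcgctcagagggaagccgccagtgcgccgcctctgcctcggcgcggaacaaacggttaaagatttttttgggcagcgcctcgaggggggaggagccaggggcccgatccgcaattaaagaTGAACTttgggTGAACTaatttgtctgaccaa
The Stra8 window held AGGTCA at 194 and 38 bases before the start. The Cyp26a1 window held AGTTCA on the minus strand, read as TGAACT, at 32 and 21 bases before the start, with 5 bases between the copies. Among 27025 promoters of the same length 13.8% held AGGTCA, 11.9% AGTTCA and 24.1% either, and of 13 matched genes of 17 on the retinoid list 2 held AGTTCA and 0 AGGTCA. These are matches of letters, not measured binding sites.

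Of 17 genes of retinoid metabolism and reception, 7 rose and 2 fell between the null fractions, beside 13.2% and 16.0% of all genes. The germ cell scale gave 13 and 1, beside 67.2% and 3.28% of all genes. Aldh1a1, which makes retinoic acid, was at 24.9, 33.0 and 25.1 FPKM in null THY1+ and at 578, 765 and 779 FPKM in null KIT+ libraries (4.67, SE 0.179, adjusted p = 5.39e-08). Dhrs3, a retinaldehyde reductase, was at 3.49, 6.17 and 3.66 FPKM in null THY1+ and at 13.9, 23.5 and 17.9 FPKM in null KIT+ libraries (2.04, SE 0.268, adjusted p = 0.000137). Cyp26b1, which degrades retinoic acid, was at 6.35, 13.5 and 4.65 FPKM in null THY1+ and at 25.5, 74.5 and 38.8 FPKM in null KIT+ libraries (2.5, SE 0.535, adjusted p = 0.00333). Aldh1a1 and Cyp26b1 are also expressed by somatic cells of the testis, and all 3 genes rose with the Leydig and Sertoli sums, whose part was not tested. In WT Aldh1a1 rose by 3.41 (adjusted p = 2.12e-07), and the test of the difference gave 1.26 (95% interval 0.71 to 1.82, adjusted p = 0.0906, blocked 0.0207). Dhrs3 had a WT difference of 0.58 and Cyp26b1 of 0.95, neither called, and the tests gave 1.46 (adjusted p = 0.0944, blocked 0.0156) and 1.54 (adjusted p = 0.252).

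Crabp1, a cytoplasmic binding protein of retinoic acid, was at 73.2, 57.2 and 82.1 FPKM in null THY1+ and at 169.5, 97.5 and 132 FPKM in null KIT+ libraries (0.89, SE 0.232, adjusted p = 0.0102), beside 1.64 in WT. Aldh1a3, a further enzyme of synthesis, rose by 1.21 (adjusted p = 0.0216), although its libraries overlapped and the call was lost without null KIT+ replicate 2 or 3 or null THY1+ replicate 1 or 3 (adjusted p = 0.0732 to 0.0817). Cyp26a1, a retinoic acid hydroxylase, fell on the deposited scale and was not called on the germ cell scale (0.30, adjusted p = 0.14). It was at 2.22, 1.68 and 1.85 FPKM in null THY1+ and at 1.41, 1.06 and 1.11 FPKM in null KIT+ libraries (−0.64, SE 0.165, adjusted p = 0.00939), and the difference dropped below 1.5-fold without null KIT+ replicate 2 (−0.57) or null THY1+ replicate 1 (−0.53). In WT its means were 2.60 ± 0.238 and 2.63 ± 0.320 FPKM, and the difference between genotypes was −0.65 (95% interval −1.17 to −0.14, adjusted p = 0.146, blocked 0.0247), against −0.08 on the germ cell scale. Rxrg, a retinoid X receptor, was at 6.57, 7.89 and 6.12 FPKM in null THY1+ and at 0.923, 1.43 and 1.14 FPKM in null KIT+ libraries (−2.47, SE 0.241, adjusted p = 1.86e-05). Its WT means were 0.645 and 0.224 FPKM, lower than in null in both fractions (adjusted p = 4.82e-05 in THY1+ and 0.0071 in KIT+). With the block 6 of the 17 retinoid genes were called in the test between genotypes, 3 positive and 3 negative, beside 9.06% and 3.26% of all genes. Aldh1a1, Aldh1a3 and Dhrs3 were positive, and Crabp1, Cyp26a1 and Rxrg negative.

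Of 17 GDNF and FGF signalling genes 3 rose and 5 fell, beside 13.2% and 16.0% of all genes. The germ cell scale gave 11 and 2, beside 67.2% and 3.28% of all genes. Etv4, an ETS factor induced by GDNF, was at 11.5, 16.7 and 13.1 FPKM in null THY1+ and at 3.51, 3.58 and 3.18 FPKM in null KIT+ libraries (−1.96, SE 0.232, adjusted p = 6.9e-05). Spry4, a feedback inhibitor, fell by 1.39, Dusp6, an ERK phosphatase, by 1.04, Erbb3, a neuregulin receptor, by 1.68, and Igf1r, the IGF1 receptor, by 0.72. Of these 5, Etv4 and Erbb3 stayed lower on the germ cell scale. Spry4 and Dusp6 were not called there, and Igf1r changed sign without a call (0.22). Genes that rose were the receptors Fgfr2 (2.11, SE 0.189), Fgfr4 (2.16, SE 0.346) and Dusp4, a phosphatase like Dusp6 (1.83, SE 0.409). Fgfr2 was at 2.0 to 2.66 FPKM in null THY1+ and at 8.87 to 12.2 FPKM in null KIT+ libraries. For Fgfr2 the WT difference was 1.08, and the test between genotypes gave 1.03 (95% interval 0.45 to 1.62, adjusted p = 0.0944, blocked 0.0148). For Dusp6 the WT fall was 1.95 and the test gave 0.91 (adjusted p = 0.13, blocked 0.029).

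Surface and adhesion proteins included 5 genes that fell and 3 that rose of 13, beside 16.0% and 13.2% of all genes. The germ cell scale gave none lower and 7 higher, beside 3.28% and 67.2% of all genes. Itga6, the alpha 6 integrin used to enrich stem cells, was at 21.5, 24.1 and 20.3 FPKM in null THY1+ and at 7.83, 9.39 and 8.83 FPKM in null KIT+ libraries (−1.33, SE 0.158, adjusted p = 6.85e-05). Cxcr4, the receptor of CXCL12, fell by 1.32, Mcam by 1.24 and Cd9, a tetraspanin, by 1.15, and each fell in WT too. Cd24a, a surface protein also of epithelial cells, was at 9.14, 8.79 and 11.8 FPKM in null THY1+ and at 55.6, 68.2 and 99.9 FPKM in null KIT+ libraries (2.87, SE 0.229, adjusted p = 5.19e-06). Adamts5, an extracellular protease, overlapped between the null fractions at 17.6 to 35.8 and 14.9 to 32 FPKM, while in WT it fell by 1.77. The test between genotypes gave 1.60 (95% interval 0.45 to 2.75, adjusted p = 0.124, blocked 0.0328).

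Of 15 genes of D-type cyclins, their kinases and inhibitors, 2 rose and 3 fell, shares near those of all genes (13.2% and 16.0%), and on the germ cell scale 11 rose and 1 fell, where 67.2% and 3.28% of all genes did. Ccnd2, cyclin D2, was at 41.8, 53.6 and 45.1 FPKM in null THY1+ and at 13.3, 19.4 and 15 FPKM in null KIT+ libraries (−1.56, SE 0.198, adjusted p = 0.000108), beside −1.58 in WT. Ccnd1, cyclin D1, was at 12.8, 14.7 and 12.7 FPKM in null THY1+ and at 29.5, 22.7 and 19.0 FPKM in null KIT+ libraries (0.80, SE 0.144, adjusted p = 0.00112). In WT its means were 25 ± 2.79 and 28.6 ± 1.52 FPKM. The level was lower in null than in WT THY1+ (−0.90, adjusted p = 0.00613, where 3.98% of all genes were called), and the test of the fraction difference gave 0.61 (95% interval 0.16 to 1.05, adjusted p = 0.131, blocked 0.0374). Cdkn2c, the p18 inhibitor of CDK4 and CDK6, rose from 3.38 to 3.93 FPKM in null THY1+ to 6.54 to 8.46 FPKM in null KIT+ libraries (1.05), while its WT difference was 0.09 (test of the difference 0.96, adjusted p = 0.0906, blocked 0.02). On the deposited scale Cdkn1a, the p21 inhibitor, fell by 0.93 and Rb1, the retinoblastoma protein, by 0.72, and neither was called on the germ cell scale (0.012 and 0.22). The Cdkn1a call was also lost without null THY1+ replicate 2 (adjusted p = 0.0541). Of the 24 replication and mitosis genes none was called on the deposited scale, where their median was 0.00 and Ccne2, cyclin E2, had the largest difference (0.60, adjusted p = 0.0945). All 24 rose on the germ cell scale, beside 67.2% of all genes.

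Genes of DNA methylation gave 3 rises of 9 and no fall, beside 13.2% and 16.0% of all genes. The germ cell scale gave 8 rises, beside 67.2% of all genes. Dnmt3b, a de novo methyltransferase, was at 13.5, 13.7 and 13 FPKM in null THY1+ and at 24.1, 22.0 and 17.6 FPKM in null KIT+ libraries (0.65, SE 0.138, adjusted p = 0.00322), beside 0.60 in WT, and dropped to 0.55, below 1.5-fold, without null KIT+ replicate 1. Tet1 and Tet2, which oxidize methylcytosine, rose by 0.78 and 0.64, whereas their WT differences of −0.16 and −0.30 were not called (tests between genotypes 0.94, adjusted p = 0.133, blocked 0.0312, and 0.93, adjusted p = 0.107, blocked 0.0294). Both null calls were lost without null KIT+ replicate 2 or 3 or null THY1+ replicate 1 or 3 (adjusted p = 0.0544 to 0.0823) and with a pseudocount of 1, and Tet2 also dropped below 1.5-fold under median centring (0.58) and quantile normalization (0.57).

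Genes of glycolysis mostly fell where called, with 6 lower and 2 higher of 17 on the deposited scale, beside 16.0% and 13.2% of all genes. The germ cell scale gave none lower and 9 higher, beside 3.28% and 67.2% of all genes. Pdk1, which holds pyruvate back from mitochondria, was at 29.6, 31.0 and 31.2 FPKM in null THY1+ and at 10.6, 11.1 and 12.2 FPKM in null KIT+ libraries (−1.43, SE 0.17, adjusted p = 7.04e-05). Pkm, pyruvate kinase, fell by 1.04, and in WT these genes fell by 1.61 and 1.05. Tpi1, triosephosphate isomerase, rose by 1.34 (adjusted p = 0.000298), and the level of such an enzyme gene with near-identical pseudogene copies is uncertain. Of 19 genes of oxidative phosphorylation 1 rose, Ndufb5 (0.67, adjusted p = 0.00154), a subunit of complex I, and none fell, beside 13.2% and 16.0% of all genes. On the germ cell scale 18 rose, beside 67.2% of all genes. The median of that list on the deposited scale was 0.26 in null and 0.30 in WT.

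Genes of the piRNA pathway, which silences retrotransposons in germ cells, fell widely between the null fractions on the deposited scale but not on the germ cell scale. Of 20 genes 14 fell and none rose on the deposited scale, beside 16.0% and 13.2% of all genes, with a median of −0.72. On the germ cell scale 1 fell and 2 rose, beside 3.28% and 67.2% of all genes. Piwil4 (MIWI2), a nuclear PIWI protein, was at 15.8, 14.1 and 12.6 FPKM in null THY1+ and at 4.53, 3.89 and 3.70 FPKM in null KIT+ libraries (−1.79, SE 0.132, adjusted p = 3.04e-06). Tdrd5, a Tudor protein, was at 36.9, 34.7 and 30.1 FPKM in null THY1+ and at 12.9, 12.9 and 12.3 FPKM in null KIT+ libraries (−1.4, SE 0.132, adjusted p = 1.47e-05). Piwil1 (MIWI) fell by 1.30, Exd1 by 1.27, Gtsf1 by 1.21 and Asz1 by 0.98. In WT 2 of 20 fell, beside 14.0% of all genes, and the median was −0.23 on the deposited scale. On the germ cell scale the medians were 0.22 in null and 0.13 in WT. Piwil4 had a mean of 14.2 FPKM in null and 7.77 FPKM in WT THY1+ libraries (adjusted p = 0.00466), against 4.04 and 3.71 FPKM in KIT+ libraries. None of the 20 passed the test between genotypes over all genes without the block, and the value for Piwil4 was −0.74 (95% interval −1.15 to −0.33, adjusted p = 0.0938, blocked 0.0195) and that for Piwil1 −0.92 (95% interval −1.31 to −0.54, adjusted p = 0.0906, blocked 0.0148). On the germ cell scale these values were −0.17 (adjusted p = 0.571) and −0.35 (adjusted p = 0.207).

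Meiotic genes gave 6 falls and 1 rise of 29 in null on the deposited scale, where 16.0% of all genes fell and 13.2% rose. The germ cell scale gave no fall and 16 rises, where 3.28% of all genes fell and 67.2% rose. Spo11, which makes meiotic double-strand breaks, was at 3.95, 3.72 and 3.70 FPKM in null THY1+ and at 1.97, 1.39 and 1.64 FPKM in null KIT+ libraries (−1.15, SE 0.144, adjusted p = 9.54e-05). Rad21l, a meiotic cohesin subunit, fell by 1.28, Meiob, a single-strand DNA binding protein, by 1.41, and Msh4, a crossover factor, by 1.03. Prdm9, the methyltransferase that places recombination hotspots, was at 0.948, 0.961 and 0.898 FPKM in null THY1+ and at 3.56, 2.60 and 2.0 FPKM in null KIT+ libraries (1.41, SE 0.349, adjusted p = 0.00765). In WT 5 of the 29 rose and 1 fell on the deposited scale, beside 7.21% and 14.0% of all genes. The WT median was 0.40 against −0.23 in null on the deposited scale, and 0.76 against 0.71 on the germ cell scale. Tex12, a synaptonemal complex protein, fell by 0.67 in null, a call lost without null KIT+ replicate 2 or null THY1+ replicate 1 or 3 (adjusted p = 0.062 to 0.0893), and had a difference of 0.43 in WT (test between genotypes −1.10, 95% interval −1.73 to −0.46, adjusted p = 0.0944, blocked 0.0139), against −0.52 on the germ cell scale.

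Genes that the study named for a higher level in null THY1+ libraries were chosen on these samples and are no independent evidence of a direction. The 7 that are on no other list all fell to null KIT+, beside 16.0% of all genes. Sycp3 and Tdrd5, also named as higher, are counted with the meiosis and piRNA genes. Of these, Tdrd5 fell and Sycp3 was not called. Krt18, a keratin with pseudogene copies whose level is therefore uncertain, was at 13.9, 14.5 and 17.1 FPKM in null THY1+ and at 2.34, 2.30 and 2.58 FPKM in null KIT+ libraries, beside WT means of 1.24 and 0.490 FPKM. Pou5f1 (OCT4) fell by 2.09 and Rhox10, a homeobox gene of uSPG, by 1.32, and on the germ cell scale 4 of the 7 fell, beside 3.28% of all genes. Among genes named as lower, 2 are on no other list. Jund, an AP-1 subunit, rose by 1.13 (adjusted p = 0.00439). Gsta3, a glutathione transferase, was at 5.31 to 8.65 FPKM in null KIT+ and 6.15 to 7.63 FPKM in null THY1+ libraries. Others named as lower, among them Zbtb16, T, Eomes, Fgfr1, Neurog3 and Ccnd1, are counted in other lists.

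**Figure D3:**
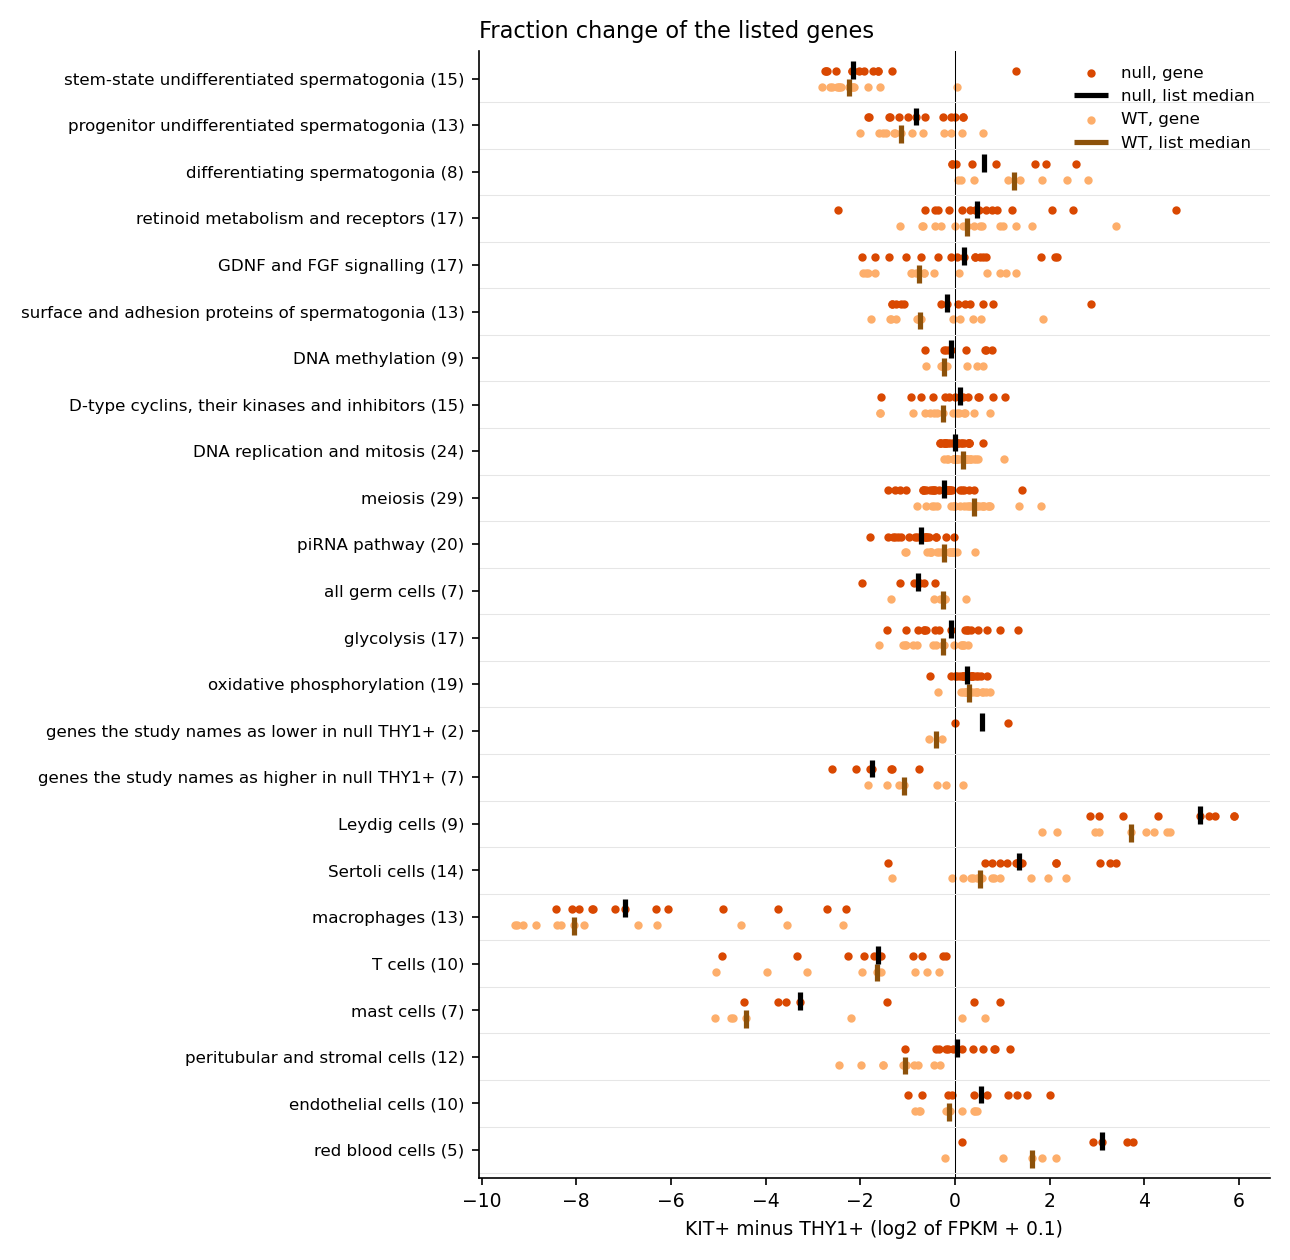
KIT+ minus THY1+ difference (log2 of FPKM + 0.1, deposited scale) of each listed gene in null (upper row of points) and WT (lower row), with bars at the list medians and the number of genes measured in brackets. Stem-state genes lay near −2 in both genotypes, while piRNA and meiosis genes lay further to the left in null and peritubular genes to the right. The values are on the deposited scale and shift to the right on the germ cell scale.

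Of the 10 largest rises 5 were listed Leydig cell markers, and of the 10 largest falls 7 were listed macrophage markers. Ren1, renin, was at 1.44, 3.09 and 2.69 FPKM in null THY1+ and at 137, 186 and 247 FPKM in null KIT+ libraries (6.27, SE 0.367, adjusted p = 5.86e-07). Insl3, a hormone of Leydig cells, rose by 5.89, Aldh3a1, an aldehyde dehydrogenase, by 5.74, and Cst8, a cystatin, by 5.39. Jak3 rose by 5.12, but its annotated span (chromosome 8, 71676296 to 71690575, plus strand) ends at the same base as Insl3 on the same strand, so its reads may be those of Insl3. Among genes that fell, Fcrls, an Fc receptor-like gene of macrophages, was at 28.9, 47.4 and 22.7 FPKM in null THY1+ and at 0.0330, 0.0861 and 0.129 FPKM in null KIT+ libraries. The natural killer cell genes Klrd1, Il2rb and Klrb1c also fell. Klrd1 was at 2.36, 2.86 and 3.30 FPKM in null THY1+ and at 0, 0.0523 and 0.0522 FPKM in null KIT+ libraries, and its difference was shared with WT (−4.46 and −4.43).

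Null and WT differences were next set side by side for every gene. In total 3213 genes were called in both genotypes, 3202 of them in the same direction (1125 higher and 2077 lower in KIT+). These were 49.0% of the null calls and 67.6% of the WT calls. Another 3319 genes were called in null and not in WT, 1821 higher and 1498 lower, and 2772 of these had the same sign in WT. Conversely 1524 were called in WT and not in null, of which 1237 had the same sign in null. Across the 22374 genes the differences correlated at r = 0.787, and at r = 0.802 over 16524 genes with a mean of at least 1 FPKM. These r values describe genes, which are not independent replicates.

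The test of the null against the WT difference called 7 genes (0.0313% of genes tested), 1 higher (0.00447%) and 6 lower (0.0268%). Without adjustment 5014 genes had p under 0.05. Dgka (chromosome 10, 128720134 to 128744855, minus strand, mm10), diacylglycerol kinase alpha, was at 32.6, 31.5 and 33.0 FPKM in null THY1+ and at 11.8, 11.2 and 11.7 FPKM in null KIT+ libraries. Its WT means were 9.73 ± 0.396 and 8.19 ± 0.527 FPKM, so the null THY1+ libraries stood apart from the other 9. The null minus WT difference was −1.23 (95% interval −1.47 to −0.99, adjusted p = 0.00413). Tmc7, a transmembrane channel-like gene, was at 17.1 to 17.6 FPKM in null THY1+ and 7.69 to 8.67 FPKM in null KIT+ libraries, against WT means of 8.57 and 8.15 FPKM (−1.01, adjusted p = 0.03). Syt12, a synaptotagmin, and Ncbp1, a subunit of the nuclear cap-binding complex, had the same shape, with null THY1+ means of 4.43 and 96.0 FPKM, null KIT+ means of 1.25 and 44.5 FPKM and WT THY1+ means of 0.539 and 53.5 FPKM (adjusted p = 0.0409 for both).

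The remaining calls had other shapes. Ccnb1ip1 (HEI10), a ubiquitin ligase of meiotic crossovers, fell in null from 15.1, 13.2 and 15.5 FPKM in THY1+ to 10.6, 7.84 and 9.07 FPKM in KIT+ libraries, and rose in WT from a mean of 8.58 to 13.4 FPKM (−1.31, 95% interval −1.7 to −0.92, adjusted p = 0.0409). Gm7221, a predicted gene, fell from a mean of 18.6 ± 0.472 to 10.1 ± 0.259 FPKM in null and had WT means of 16.4 and 16.6 FPKM. On the germ cell scale Tmc7 (−0.43), Ncbp1 (−0.38) and Gm7221 (−0.31) were not called, while Dgka, Syt12 and Ccnb1ip1 stayed negative calls. The sole positive call on the deposited scale, Gm13168, is a processed pseudogene at 0.0519 to 0.636 FPKM in the null libraries, so it rests on few reads. No gene of the 24 lists was called in this test without the block, where 106 of the 312 listed genes had an unadjusted p under 0.05. With the block 81 of the 312 were called, 52 positive and 29 negative, beside 9.06% and 3.26% of all genes (12.3% in all). The negative calls included 9 of 29 meiotic, 7 of 20 piRNA and 4 of 7 germ cell genes. None of these was called negative on the germ cell scale, but that fit used no block. Without the block none was called on the deposited scale either. The germ cell scale also moves every such difference up by 0.58 and is set by the germ cell genes. These fits therefore cannot show what ended the calls. The positive calls included 8 of 9 Leydig, 7 of 14 Sertoli and 8 of 12 peritubular and stromal markers. The block rests on numbers that paired the null libraries but not every pair of the 4 groups. Without the block the count depended on 1 library. Without null KIT+ replicate 1 it was 867, and without any other single library it was 1 or 2. On the germ cell scale the test called 6188 genes, 6167 of them positive.

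**Figure D4:**
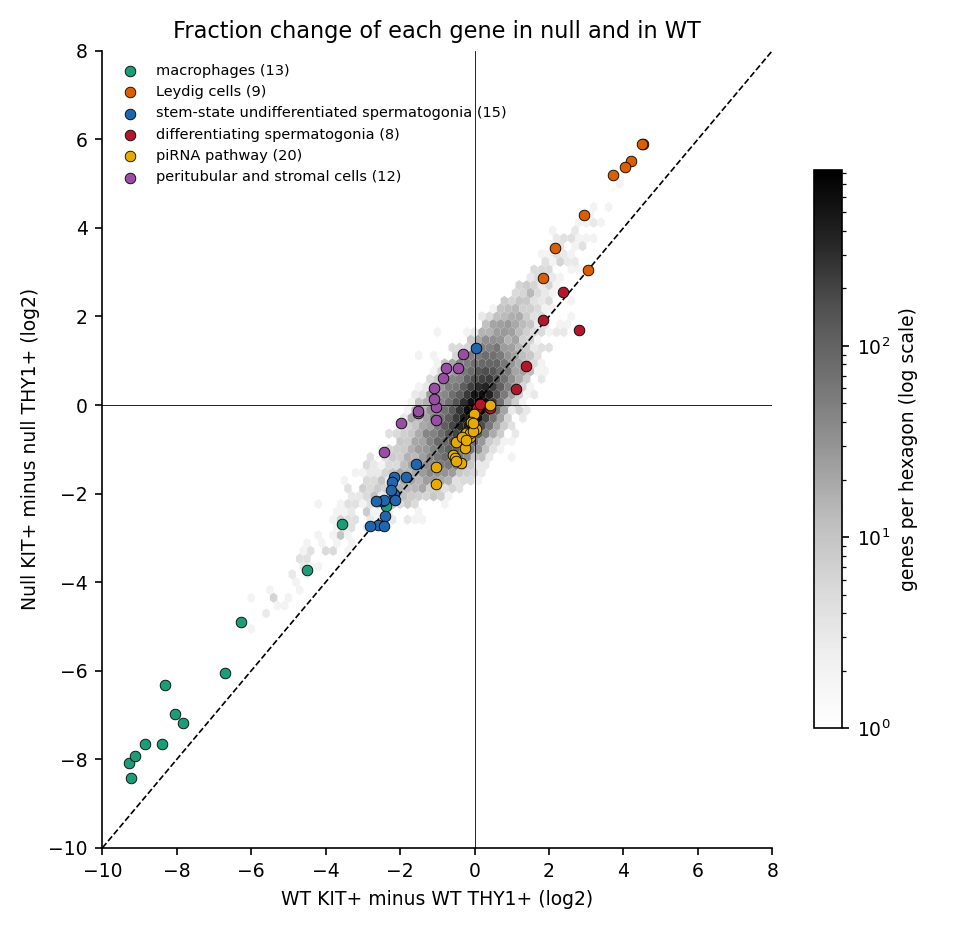
KIT+ minus THY1+ difference (log2) of each of 22374 genes in WT (x axis) and null (y axis), shaded by the number of genes per hexagon (log scale), with 6 gene lists as coloured points and a dashed line of equal differences. Stem-state genes lay near the line, piRNA genes below it and Leydig, macrophage and peritubular genes above it, on the deposited scale.

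To place each null library along the fraction change with genes that neither genotype of the Zbtb16 table had selected, genes were taken from the comparison of KIT+ and THY1+ libraries of Sox3 cKO testes. That comparison called 4809 genes (22.7% of those tested there), of which 2204 higher and 2559 lower genes were measured in the Zbtb16 table. Of the lower genes 97.2% were also lower in null and 71.6% were called lower, with a median of −1.03 in null and −1.09 in WT. By replicate number the null medians were −1.02, −1.14 and −0.96. Of the higher genes 98.0% were also higher in null and 77.4% were called higher, with a median of 1.08 in null and 0.61 in WT. The null medians by replicate number were 0.94, 1.12 and 1.2, and the WT medians 0.39, 0.75 and 0.70, so that each null value lay above each WT value. Of the higher genes 80.9% had the larger rise in null, and none passed the test between genotypes without the block.

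The medians also differed by size of change. Genes that fell at least 16-fold in Sox3 cKO (137 genes) had medians of −4.14 in null and −5.00 in WT, and genes that rose at least 16-fold (39 genes) had medians of 4.43 in null and 3.28 in WT. Genes that changed under 1.5-fold there had medians of −0.03 and 0.00. A score was computed per library as the mean log2 level of the higher genes minus that of the lower genes, scaled so that the WT THY1+ mean is 0 and the WT KIT+ mean is 100. Null THY1+ libraries scored −0.71, −5.55 and 2.19 (mean −1.36 ± 3.91), overlapping the WT THY1+ libraries, which ran from −3.66 to 2.13. With only the genes changed at least 4-fold in Sox3 cKO these libraries did not overlap, at 1.91 to 7.82 in null and −2.14 to 1.59 in WT. Null KIT+ libraries scored 105, 115 and 114 (mean 111 ± 5.61), each above the WT KIT+ libraries at 94.2, 103 and 103. The span between fractions in null thus covered at least the whole WT span, and a scaling of whole libraries cannot move a score built as a difference. These gene sets hold somatic genes too. Leaving out the listed markers gave means of −1.58 and 112 for the null fractions, but genes of other cells that are on no list stayed in.

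**Figure D5:**
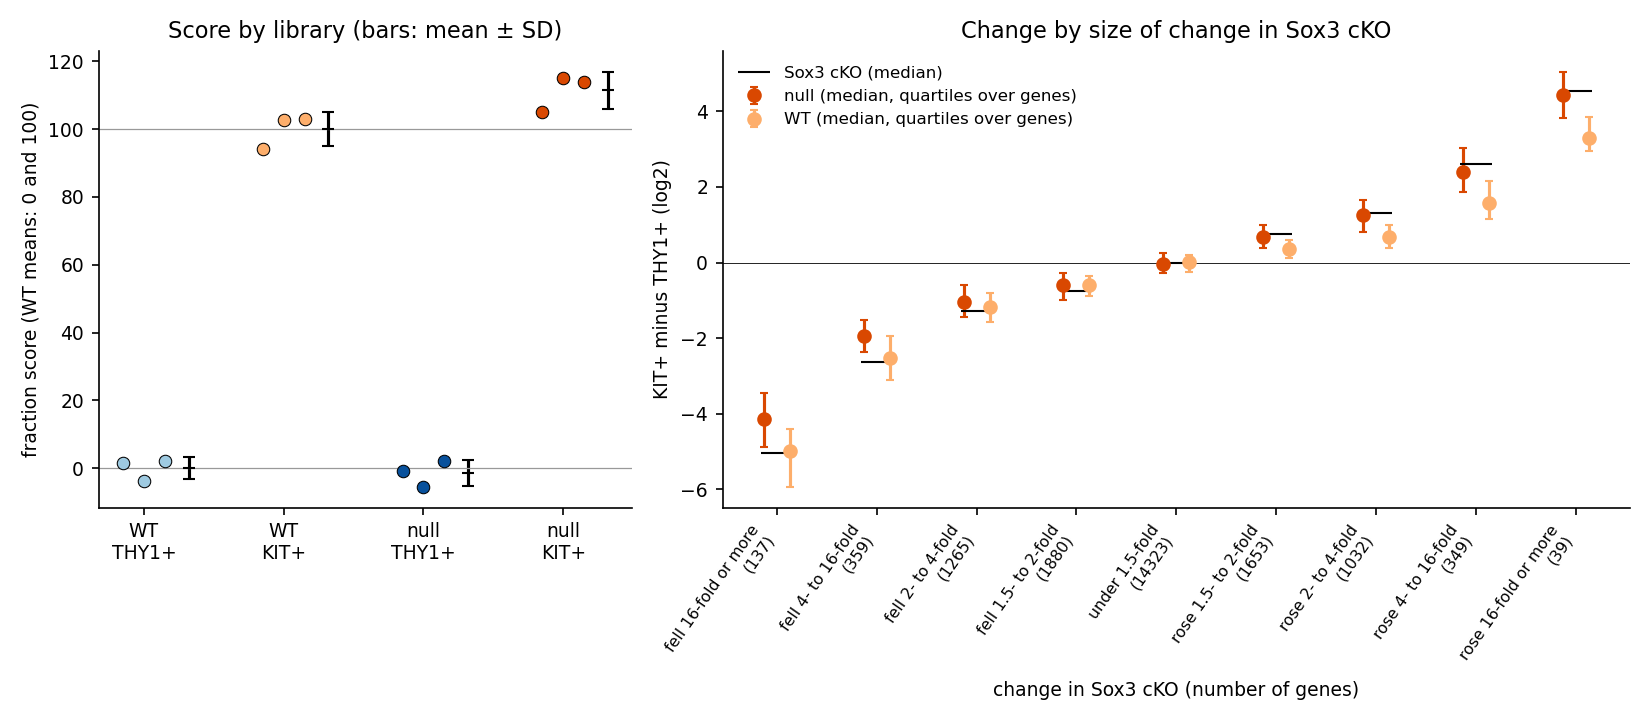
Left, score of each library along the WT fraction change, from genes chosen in Sox3 cKO libraries, with bars at the mean ± SD of 3 libraries. Right, median KIT+ minus THY1+ difference (log2, with quartiles over genes) in null and WT for genes grouped by their change in Sox3 cKO. All 3 null KIT+ libraries lay above the WT KIT+ libraries, and the medians of rising genes were larger in null than in WT.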

How the data were processed

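RNA was sequenced from THY1+ and KIT+ cells of pooled P7 testes, with 3 libraries per group. The authors prepared stranded, rRNA-depleted libraries, aligned single reads to mm10 with Novoalign (both named in the submitters' processing notes) and deposited FPKM per gene, normalized to mapped reads and transcript length. Whether the counting used strand is not given in the sources used here, so a gene and an antisense partner cannot be told apart, and reads with several matches could count for several copies.

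The deposited FPKM were analysed as log2(FPKM + 0.1) for genes with a mean of at least 0.1 over the 12 libraries of the Zbtb16 table, with limma 3.58.1 (R 4.3.3): 1 model of 4 group means, trended and robust variances, two-sided, Benjamini-Hochberg adjustment over all genes tested. A call needed an adjusted p of at most 0.05 and 1.5-fold, the study's thresholds. These values are not counts, so no count model was used. Read depths were estimated from the steps of low FPKM with GENCODE M21 lengths, and 77.2 to 77.9% of low values in null libraries fell within 0.02 of a whole read, too few to recover counts. The script was tested on simulated data. Sox3 cKO genes came from the same model on the other table, in which the libraries labelled WT entered for the spread only. In that table the libraries labelled WT THY1+ held more Kit and less Thy1 than those labelled WT KIT+, against their labels, and no direction was drawn from them.

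Same-numbered null THY1+ and KIT+ libraries deviated together (correlations of deviations from the group means 0.343, 0.519 and 0.315), so the numbers pair them. The labels and the study give no shared isolation day.

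The members and the 24 gene lists (314 genes, 312 found) were chosen with earlier results of these data known. Older symbols were matched for Gm14490 (Dnmt3c), Gm1564 (Meioc), Gpr125 (Adgra3), Emr1 (Adgre1), 1700123I01Rik and Ccdc79, and Gcna and Fcer1a were not matched. Genes were named by rule: Thy1, Kit and Zbtb16, up to 6 listed genes with the largest null differences and a mean of at least 1 FPKM, the 10 largest null rises and falls, genes with the most similar null and WT differences, and calls of the test between genotypes.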

Additional observations from a re-analysis of the deposited data

Results flagged for a closer look

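The following genes had a KIT+ minus THY1+ difference that differed between null and WT by the test of the difference itself (log2 scale, limma with Benjamini-Hochberg adjustment over 22374 genes, 3 libraries per group). Dgka differed by −1.23 (adjusted p = 0.00413), with the null THY1+ libraries at 31.5 to 33.0 FPKM above the other 9. Tmc7 differed by −1.01 (adjusted p = 0.03), Syt12 by −1.73, Ncbp1 by −0.96, Gm7221 by −0.89 and Ccnb1ip1 by −1.31 (adjusted p = 0.0409 for each of these 4). In Tmc7, Syt12 and Ncbp1 the null THY1+ libraries were again the high ones, in Gm7221 the null KIT+ libraries were the low ones, and Ccnb1ip1 moved in opposite directions in the 2 genotypes. Gm13168 differed by 2.62 (adjusted p = 0.0409) at levels of 0.0519 to 0.636 FPKM in null libraries, where the fitted value depends on the pseudocount. These values are on the deposited scale. On the germ cell scale Dgka (−0.66), Syt12 (−1.16), Ccnb1ip1 (−0.73) and Gm13168 (3.19) stayed calls. Tmc7 (−0.43), Ncbp1 (−0.38) and Gm7221 (−0.31) were not called there. Dgka was the only one of the 7 to pass in every alternative run for it, with adjusted p of at most 0.0398. Each of the others lost the call without most single libraries, with adjusted p up to 0.17.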

How the results depend on the processing

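The null comparison gave 4070 calls with a pseudocount of 1 and 4332 among genes with a mean of at least 1 FPKM. It gave 5758 to 6671 calls without 1 library at a time. The WT comparison gave 2883 and 3139 calls under the same first 2 settings, and 3895 to 4869 without 1 library. The test between genotypes gave 45 calls with a pseudocount of 1 and 1 to 867 without 1 library, the 867 without null KIT+ replicate 1. Setting each library to the germ cell list, an alternative chosen after seeing the data, gave 15774 null calls (15041 higher, 733 lower) and 6188 for the test between genotypes, since it shifts every gene of a library alike. With the replicate number as a block the null comparison gave 7071 calls. The block gave 2756 calls for the test between genotypes (2027 positive, 729 negative). Over all 4 groups 16 of 18 same-numbered pairs correlated above 0.1 (−0.0278 to 0.520) and 12 of 12 libraries correlated best on average with their own number, a hint from the data and not the design. The null THY1+ score was 5.20 from genes changed at least 4-fold in Sox3 cKO. Of 158 named genes called in null, 131 were called in every alternative other than the germ cell scale, and none turned its direction there. On the germ cell scale 112 of the 158 kept sign and call, 30 kept the sign without a call and 16 changed sign without a call, at 0.30 for Cyp26a1, 0.012 for Cdkn1a, 0.22 for Rb1, 0.26 for Hormad2, 0.27 for Tex12, 0.21 for Tdrd12, 0.068 for Ddx4, 0.16 for Tex19.1, 0.21 for Tex14, 0.28 for Dnd1, 0.16 for Pfkp, 0.17 for Cth, 0.054 for Lck, 0.25 for Cd8a, 0.068 for Gm7221 and 0.26 for Ccnb1ip1. Another 10 named genes with a small negative difference and no call became calls there, at 0.87 for Sohlh1, 0.75 for Uhrf1, 0.81 for Dnmt1, 0.62 for Bub1b, 0.63 for Mcm7, 0.65 for Bub1, 0.83 for Sycp3, 0.79 for Syce1, 0.79 for Mei4 and 0.79 for Pecam1. Neurog3 and Igf1r, described above but not among the 158, also changed sign on the germ cell scale and lost the call (0.30 and 0.22). Estimated depth limits genes below about 0.1 FPKM.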
